A study of Homo sapiens with 5 samples.

Results

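MYOD1 encodes a basic helix-loop-helix transcription factor that commits cells to skeletal muscle. The regulatory landscape around it was described in 2 established human cell lines, RD and RH18, grown from rhabdomyosarcoma, a muscle-like tumour of soft tissue, of the type that carries no gene fusion. Peaks were taken that overlapped, by at least 1 bp, a 170 kb window of chromosome 11 (chr11:17640000-17810000, hg19), in which MYOD1 lies at 17.741 to 17.744 Mb. The window held 59 of the 100703 peaks in 3 lists: 28 of 43159 for histone H3 acetylated at lysine 27 (H3K27ac) in RD, 26 of 46408 for H3K27ac in RH18, and 5 of 11136 for MYF5 in RH18. H3K27ac marks active promoters and enhancers. MYF5 is a transcription factor of the same family as MYOD1, active in muscle progenitors.

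Each list came from 1 library of chromatin immunoprecipitation and sequencing on cells grown in DMEM with 10% serum. No value below therefore has a replicate error, no difference between the lines was tested, and it includes any difference between the libraries. Input DNA of each line belongs to the study and had no list here. MYOD1 binding was not analysed here.

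In the mouse, transcription of the gene depends on a core enhancer far upstream and on a distal regulatory region nearer to the promoter. The core enhancer is active early, in muscle progenitors and myoblasts, and the distal regulatory region acts mainly in differentiating and mature muscle. The human gene has counterparts of both. Here they were taken as intervals by distance, 18 to 24 kb and 4 to 7 kb upstream of the gene's start. Distances are from 17.741 Mb, a position given to the nearest kb, so they are good to about 1 kb. The nearest protein-coding genes by order on the chromosome are OTOG on the upstream side and KCNC1 and then SERGEF on the downstream side. Which outlying peaks lie inside these genes was not determined.

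RD H3K27ac covered 19.7 kb of the window and RH18 H3K27ac 19.1 kb, and most of it lay upstream of MYOD1 in each line. The far upstream block, the cluster behind the core enhancer and the core enhancer itself were acetylated in RD and in RH18. The gene and its promoter were acetylated in RD, and no RH18 region was listed there. The 5 MYF5 peaks all lay at upstream elements acetylated in RH18, and none at the gene. Of all MYF5 summits in the list, 55.2% lay inside RH18 H3K27ac regions, a share within the wide interval for 5 summits.

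**Figure D1:**
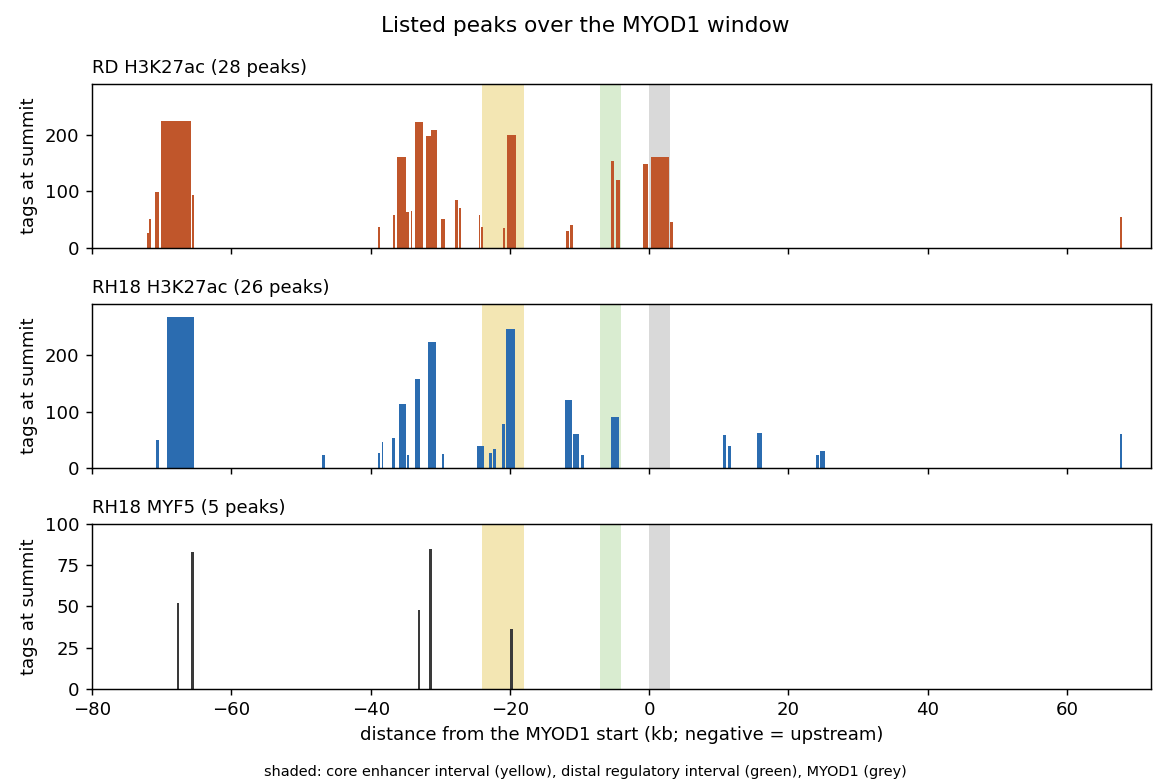
Peaks of the RD H3K27ac, RH18 H3K27ac and RH18 MYF5 lists by distance from the MYOD1 start in kb (x axis), drawn at their width, widened where they would be too narrow to see, and with the number of sequenced tags at the summit as height (y axis, a separate scale for MYF5). Most regions of both H3K27ac lists lie on the upstream side, with stretches between them that hold none. Over the gene (grey) the RD list has regions of up to 161 tags and the RH18 list has none, and MYF5 peaks stand at 5 upstream places.

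The window was densely acetylated. When the genome was laid out in tiles of the same 170 kb, 0.901% of the 8213 tiles with any RD summit held at least the 28 found here, and 1.47% of the 8757 tiles with any RH18 summit held at least 26. The median tile held 3.0 summits in either list. For MYF5, 7.62% of 5354 tiles with a summit held at least 5. The window's regions were somewhat wider than those of the whole lists, with a median of 418 bp in RD against 358 bp in its list, and of 500.5 bp in RH18 against 474 bp, and rested on fewer tags. The RD regions had 26 to 225 tags at the summit, with a median of 68.0 against 85.0 over the whole list. The RH18 regions had 23 to 266, with a median of 52.0 against 57.0. Those in the top 10% of their own list by tags numbered 5 of 28 in RD and 3 of 26 in RH18. By fold enrichment, the authors' deposited ratio over local background at the summit, the RD regions of the window stood higher in their list, at a median percentile of 70.6 against 36.8 by tags. Local background under them had a median of 1.06 times the lowest in the list, against 2.34 over all RD regions.

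Tags of the lines are not on a common scale, since total reads are unknown. Each region is therefore placed by its percentile, the share of its own list with fewer tags. The H3K27ac lists reached down to different lowest −log10 p-values, 5.00 in RD and 7.09 in RH18. Equal percentiles in the 2 lines therefore do not stand for equal acetylation.

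The core enhancer interval held a strong region in each line. The RD region (chr11:17720548-17721909) had 200 tags and a fold of 33.9, and exceeded 94.3% of its list by tags and 99.6% by fold. The RH18 region (chr11:17720476-17721762) had 245 tags and a fold of 88.3, and exceeded 96.7% by tags and 99.4% by fold. They shared 1215 bp, which is 89.2% of the RD region and 94.4% of the RH18 region. Acetylation around the core enhancer extended over 1.55 kb in 2 RD regions and over 2.66 kb in 4 RH18 regions. A small RD region just beyond it (chr11:17720057-17720242, 36 tags, fold 6.60, percentile 4.70) met an RH18 region of 78 tags (chr11:17719894-17720290, fold 28.4, percentile 63.1). The other pair in RH18, of 28 tags (chr11:17717952-17718370, fold 10.5) and 35 tags (chr11:17718504-17719063, fold 13.0), lay 909 and 993 bp from the nearest RD region.

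The distal regulatory interval was also acetylated in both lines, at lower rank. RD had 2 regions there, chr11:17735470-17735937 with 154 tags (percentile 83.4) and chr11:17736219-17736794 with 120 tags (percentile 70.1). RH18 had a single region across both of these (chr11:17735476-17736680) with 91 tags (percentile 68.8). Folds were 11.3 and 10.1 in RD and 33.0 in RH18. Under the RD pair the local background stood at 4.42 and 3.64 times its lowest value, and under the RH18 region at 1.00 times. By fold the RD pair ranked lower in its list than by tags, at percentiles 73.6 and 67.6. The RH18 region ranked higher by fold, at percentile 82.8, so the order of the lines here turned on the measure. No MYF5 peak was listed in this interval.

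At the gene itself the lists differed. RD had 3 regions within 4 kb of the start, spanning chr11:17740181-17744458 and covering 3.74 kb, or 19.0% of its acetylated bases in the window. The first (chr11:17740181-17740839) lay just upstream of the start, with 148 tags, a fold of 17.8 and percentile 81.4. The second (chr11:17741226-17743882) lay across the gene, with 161 tags, a fold of 12.9 and percentile 85.6; its 2657 bp made it the second widest RD region of the window. The third (chr11:17744034-17744458), just past the gene, had 47 tags, a fold of 7.16 and percentile 16.2. RH18 had no region here. Its list was empty for 14.9 kb, between the region that ended at 17736680 and the one that started at 17751546, and these ends lay 3.5 kb before and 7.09 kb after the RD stretch.

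Peak numbers ran without a gap from the first to the last peak of the window in all 3 lists. The RH18 background over the gene is unknown, since no RH18 peak was listed there. Under the RD regions at the gene, from upstream to downstream, local background stood at 2.08, 3.90 and 1.46 times the lowest of the RD list. Elsewhere in the RH18 list, regions at the lowest background rested on at least 15 tags (5th percentile 20), and those at 3.5 to 4.5 times the lowest on at least 25 (5th percentile 35.0). Weaker acetylation might not be listed, so the empty stretch shows no listed region and not an absence of the mark. Over the whole list, 60.0% of RD regions overlapped an RH18 region. Wide RD regions seldom lacked such a partner. Of the 565 RD regions of at least 2 kb, 7.96% overlapped no RH18 region, and 4.96% lay at least as far from one as the region across MYOD1 did (4545 bp). Among the 6207 RD regions with at least its 161 tags, 8.67% overlapped none. The width of 2 kb was set after the values were seen, and the limit of 161 tags is the region's own. These shares therefore do not test the MYOD1 region. The other RD regions at the gene, of 659 and 425 bp and 148 and 47 tags, fall in neither class.

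**Figure D2:**
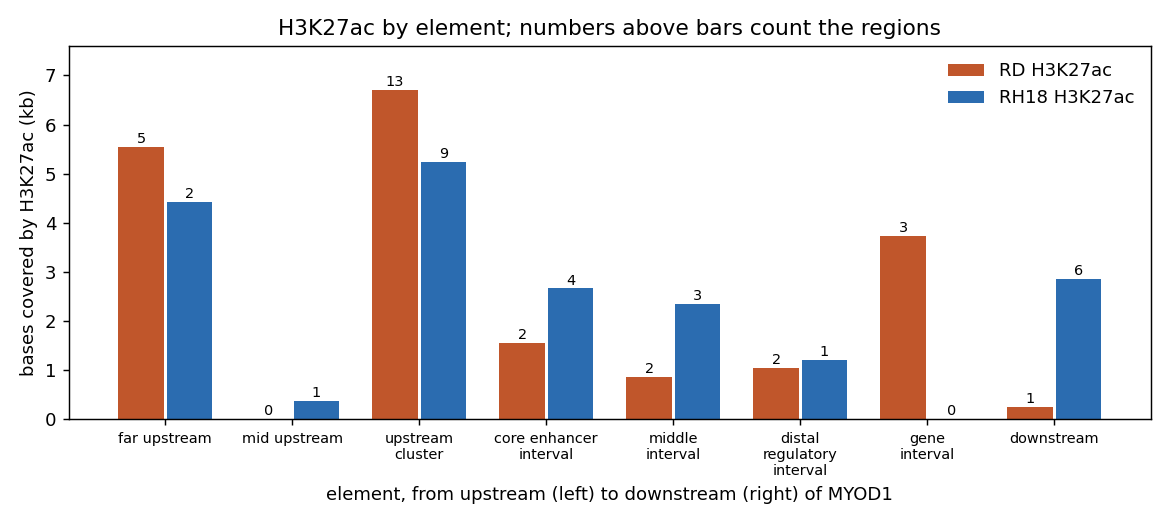
Bases covered by H3K27ac (y axis, kb) in each element of the window (x axis, upstream to downstream), RD left of RH18, with the number of regions above each bar. Over the gene interval RD covers 3.74 kb in 3 regions and RH18 none, while in the downstream element RD covers 0.256 kb in 1 region and RH18 2.86 kb in 6.

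Downstream lay a stretch with regions in RH18 alone, and midway both lines had regions, with the highest percentile in RH18. Past the gene RD had no region for 64.2 kb. In that stretch, 10 to 25 kb past the MYOD1 start, RH18 had 5 regions (chr11:17751546-17766249) of 59, 39, 62, 23 and 30 tags, none above percentile 53.6. The highest of these (chr11:17756514-17757135) lay about 16 kb past the start, on the KCNC1 side; KCNC1 encodes a voltage-gated potassium channel. Between the core enhancer and the distal regulatory interval, about 12 kb upstream, RD had 2 weak regions, of 31 and 40 tags (percentiles 1.46 and 8.51). By fold their percentiles were higher, at 20.9 and 23.6. RH18 had a region of 121 tags there (chr11:17728892-17729917, percentile 78.4, by fold 90.4), followed by regions of 60 and 23 tags. Acetylated bases in this interval came to 0.856 kb in RD and 2.34 kb in RH18. About 47 kb upstream RD had no region, and RH18 had a single one of 24 tags. The last peak of the window, about 68 kb past the start, was in both lists, with 55 tags in RD and 60 in RH18.

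The strongest acetylation of the window lay farthest from the gene, 65 to 72 kb upstream, on the OTOG side. RD had a region of 4324 bp there (chr11:17670873-17675196) with 225 tags, the highest of its regions in the window, and a fold of 38.1 that ranked 56th in the whole list. RH18 had 1 of 3944 bp (chr11:17671704-17675647) with 266 tags, also its highest here, and a fold of 95.6 that ranked 179th. They shared 3493 bp. Weighted by fold and width, this block made up 41.9% of the RD acetylation in the window and 44.3% of the RH18 acetylation, more than any other element. Its share was smaller by covered bases, at 28.2% in RD and 23.2% in RH18, and by summed summit tags, at 17.7% and 15.8%. By these measures the upstream cluster came first, with 34.1% of the covered bases in RD and 27.4% in RH18, and 47.0% and 35.4% of the tags. No target gene was assigned to it.

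The upstream cluster, 24 to 40 kb before the gene, held the most regions, 13 in RD and 9 in RH18, covering 6.71 and 5.23 kb. Its highest folds were 33.6, 33.4 and 29.0 in RD (222, 197 and 209 tags), at chr11:17707358-17708495, chr11:17708902-17709602 and chr11:17709695-17710530, and 80.1 and 56.8 in RH18 (222 and 157 tags), at chr11:17709250-17710373 and chr11:17707395-17708059. RD regions at chr11:17713144-17713517 and chr11:17713628-17714005, of 85 and 70 tags, lay 1671 and 2155 bp from the nearest RH18 region. The other members of the cluster ranged from 38 to 161 tags in RD and from 24 to 113 in RH18.

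Of the RD regions, 20 of 28 overlapped an RH18 region (71.4%, exact 95% interval 51.3 to 86.8%, counting error only), against 60.0% of all RD regions. Of the RH18 regions, 16 of 26 overlapped an RD region (61.5%, 40.6 to 79.8%), against 45.1% of all. Each whole-list share lies within the window's interval. Bases in both lists came to 11.5 kb, or 42.0% of the 27.3 kb acetylated in either line, against 30.7% over the whole lists. They made up 58.2% of the RD bases in the window, against 59.6% over the whole RD list. Of the RH18 bases they made up 60.1%, against 38.8% over the whole RH18 list. The whole RH18 list covered more of the genome, 32.5 Mb against 21.2 Mb in RD. Summits of overlapping regions lay a median of 68.0 bp apart. RD regions that met an RH18 region had 31 to 225 tags (median 78.5) and the others 26 to 161 (median 68.0). The RD regions of most tags without a partner, at 161 and 148, were those at the gene. RH18 regions that met an RD region had 24 to 266 tags (median 69.0) and the others 23 to 62 (median 32.5). The ranges overlapped in each line. By fold the order in RD was the other way, with a median of 9.96 for regions that met a partner and 11.9 for the others. In RH18 the order by fold was the same as by tags, at 25.2 and 9.76.

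**Figure D3:**
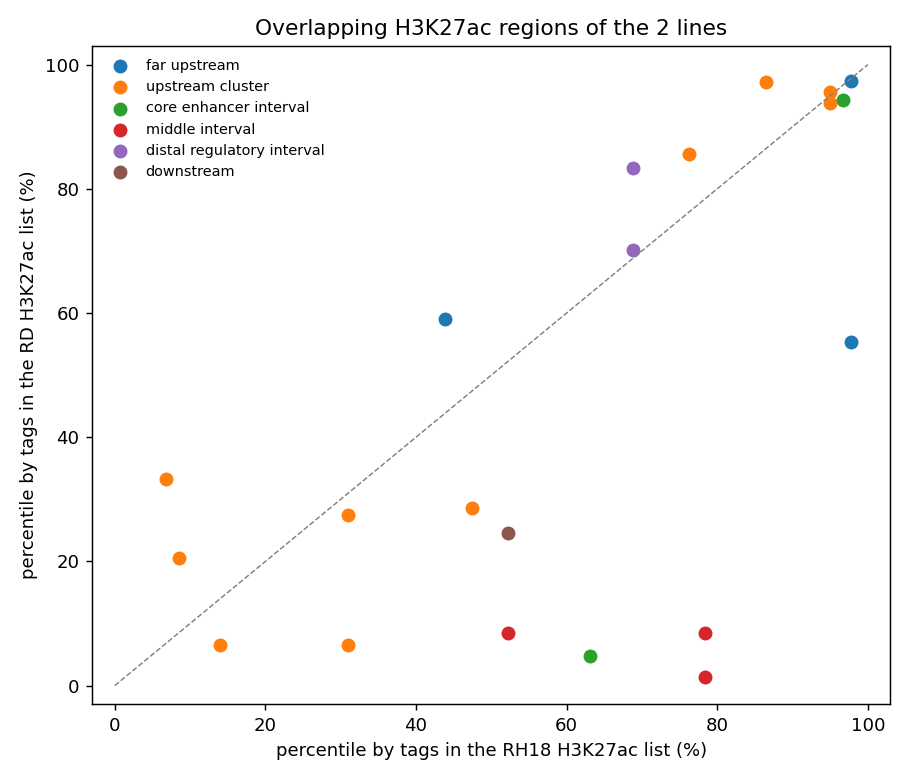
The 21 overlapping pairs of regions, by percentile of summit tags in the RH18 H3K27ac list (x axis, %) and in the RD H3K27ac list (y axis, %), coloured by element; the dashed line marks equal percentiles, and a region that meets several others appears in several pairs. The far upstream block, the upstream cluster and the core enhancer each have a pair above 90 in both lists, while the 3 pairs of the middle interval lie below 10 in RD and above 50 in RH18.

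Where regions within 12.5 kb were joined into domains, the RD domain ran from the upstream cluster across the core enhancer to the gene (chr11:17702123-17744458, 22 regions, 13.9 kb covered) and ranked 37th of 16671 by summed fold times width. The RH18 domain (chr11:17694068-17736680, 18 regions, 11.8 kb covered) stopped before the gene and ranked 275th of 18842. Each held 3 MYF5 summits. The far upstream block formed a domain of its own, ranked 90th in RD and 340th in RH18, with 2 MYF5 summits. Joined within 5 kb, both domains ended at the core enhancer, at 17721909 in RD (rank 44) and 17721762 in RH18 (rank 306), so that neither reached the gene. Joined within 25 kb, the RH18 domain took in the far upstream block and the downstream regions; the ranks were then 71 in RD and 125 in RH18. Ranked by recovered tags, the RH18 domain stood 176th. Ranks hold within a list only.

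MYF5 in RH18 was listed at 5 places of the window, in 3 elements. A pair lay in the far upstream block, a pair in the upstream cluster and 1 at the core enhancer. Of the 5 summits, 3 lay inside RD H3K27ac regions (exact 95% interval 14.7 to 94.7%), against 39.9% of all MYF5 summits. All 5 lay inside RH18 regions (interval from 47.8% up), against 55.2% of all. With 5 summits these intervals are wide, and both whole-list shares lie within them. A MYF5 summit was held by 3 of 28 RD regions (10.7%), against 9.71% of all, and by 4 of 26 RH18 regions (15.4%), against 12.0%, both near the share of the whole list.

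The highest MYF5 peak was in the upstream cluster, about 31 kb before MYOD1 (chr11:17709435-17709790), with 85 tags and a fold of 28.1, above 90.9% of the list by tags. Its neighbour about 33 kb before the gene (chr11:17707800-17708050) had 48 tags and a fold of 16.1. In the far upstream block the edge toward MYOD1 held the stronger peak (chr11:17675145-17675557, 83 tags, fold 26.5, percentile 90.2) and the interior the weaker (chr11:17673209-17673489, 52 tags, fold 8.80). The peak at the core enhancer, about 20 kb before the gene (chr11:17721054-17721430), was the lowest of the 5, with 36 tags and a fold of 8.23, above 30.6% of the list by tags and 18.7% by fold. The acetylated region around it was among the highest of its list.

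Both of the stronger MYF5 summits sat in narrow gaps between RD regions. The summit in the cluster lay 32 bp past the end of an RD region and 61 bp before the start of the next, and the summit at the edge of the far upstream block lay 143 bp past an end and 94 bp before a start. Flanked in this way, with an RD region at most 500 bp off on either side, were 10.6% of all MYF5 summits. In RH18 the same summits lay inside continuous regions. The nearest RD acetylation summits were 183 to 506 bp from the 5 MYF5 summits, and the nearest RH18 ones 259 to 1544 bp. Without a control antibody, these peaks do not tell MYF5 binding from unspecific pull-down.

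**Figure D4:**
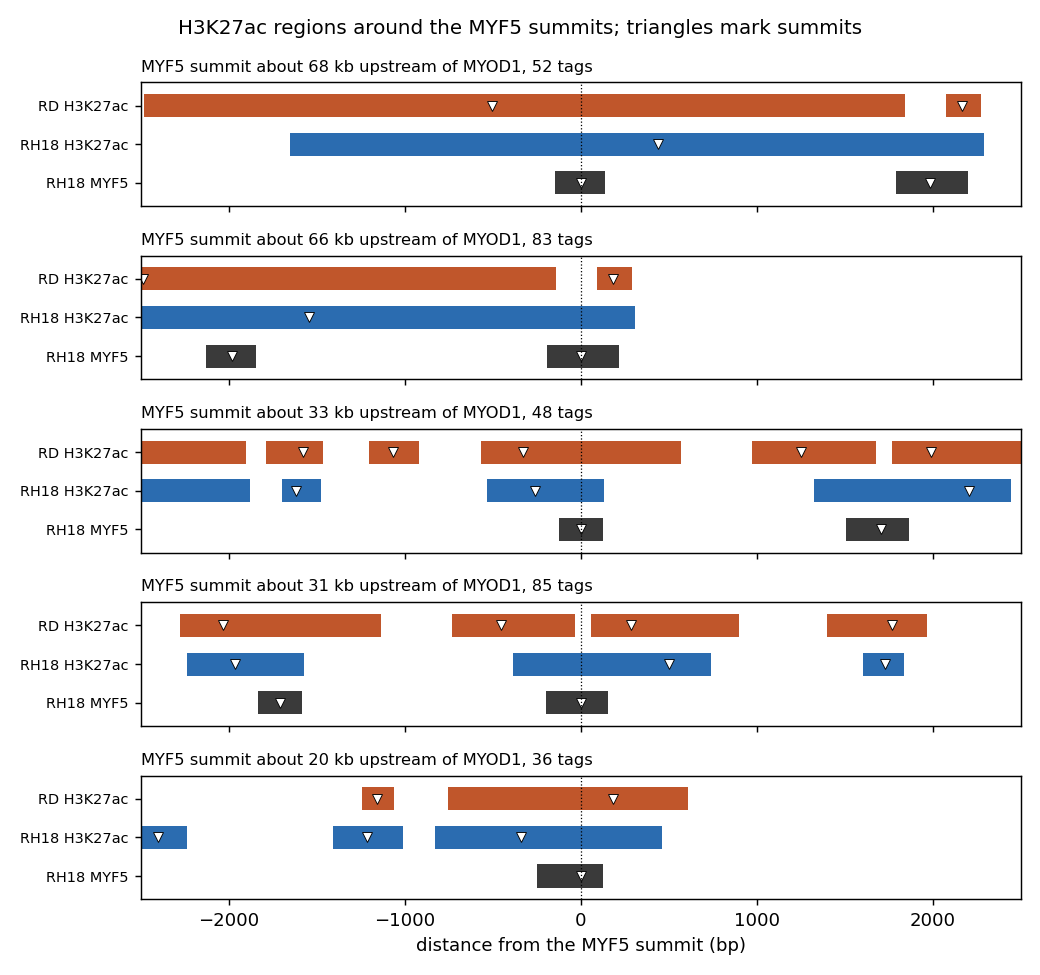
H3K27ac regions of RD (top row of each panel) and RH18 (middle row) and MYF5 peaks (bottom row) around each of the 5 MYF5 summits (x axis, bp from the summit; triangles mark summits of peaks). The summits of 83 and 85 tags fall between RD regions and inside RH18 regions, and the other 3 fall inside regions of both lines.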

How the data were processed

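Peak lists of 3 libraries were used, 1 per library. The submitters' processing notes name BWA 0.7.10, MACS2 2.1.0 and hg19, without saying how they were used. The authors deposited, for each peak, the fold enrichment as a ratio, the p-value and q-value as −log10, and the summit; their deposited score was left aside. The lists ended at different thresholds, with a lowest −log10 p-value of 5.00 (RD H3K27ac), 7.09 (RH18 H3K27ac) and 9.09 (MYF5).

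Tags at each summit and the local background were solved for, with the formulas of MACS2, from each peak's fold and p-value. Within 0.1 tag, 100.0% of peaks in each list came out whole; 45.5%, 7.73% and 18.7% had several solutions, and the one nearest a whole tag was taken. The code was tested on simulated data whose tag scales were all larger than that of the RD list, and the outcome is not given here. Those data also had no lowest background shared by many peaks. Lists were read 1-based. Regions were shared where they overlapped by 1 bp, MYF5 was placed by summit, and elements by a region's midpoint. Shares carry Clopper-Pearson intervals. The window, elements and lists were chosen with earlier results of these data known. Given with position, tags and fold were the regions at the gene and at both intervals, and the 3 of highest fold elsewhere in each list; further regions named were chosen after their values were seen. A comparison with other myogenic genes and a search for E-boxes need hg19 positions and sequence, and were not run. The software was Python 3.11.15 with numba 0.67.0, matplotlib 3.10.9, scipy 1.17.1, pandas 2.3.3 and numpy 2.4.6.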

Additional observations from a re-analysis of the deposited data

How the results depend on the processing

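Of 66 alternatives, 4 of them added after seeing the data, 58 values stayed within the interval, or within 1.5 times, and 8 moved. An overlap of 50% of both regions gave shares of 35.7% of RD regions and 38.5% of RH18 regions. The whole-list shares under that rule were not computed, and the 60.0% and 45.1% given above are for an overlap of 1 bp. With all lists cut at a −log10 q of at least 10, 46.2% of RH18 regions (12 of 26) overlapped an RD region. This counted as unmoved because it lies within the wide interval of 40.6 to 79.8%. The RD share was then 71.4% (15 of 21). Whole-list shares at that cut were not computed. The share of MYF5 summits in RD became 100% with any overlap of the peak and with summits within 500 bp, since 2 summits lie in narrow gaps. Over all MYF5 summits these looser shares were not computed, and the 39.9% given above is for summits inside a region. The domain rank was 71 in RD and 125 in RH18 with joining at 25 kb, and 176 in RH18 by recovered tags. The median percentile of RD regions was 36.8 by recovered tags. At a −log10 q of at least 10, 2 of 3 RD regions remained at the gene. No RH18 region lay within 500 bp of an RD region there. E-boxes at MYF5 summits were not searched. With 1 library a group and unknown depth, a missing region means no listed peak.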
